A study of Saccharomyces cerevisiae with 4 samples.

Results

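The comparison set yeast strains that lived on a stress-inducible cytosolic Hsp70, Ssa3 or Ssa4, against strains that lived on a constitutive one, Ssa1 or Ssa2. Its members were all 4 arrays of the series, 2 on each side, and the 5771 of 5794 array features with a value on all 4. A feature was called separated when its lower intensity on one side exceeded its higher intensity on the other. It entered the list described here when this gap, the ratio of those intensities, was over 1.5-fold. The list held 143 features, or 2.48% of those with 4 values, with 77 (1.33%) higher and 66 (1.14%) lower in the Ssa3 and Ssa4 strains.

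All 4 strains were G402 (mating type MATa, carrying ade2-1 and SUQ5, the kar1-1 allele, and the markers his3, trp1, ura3, leu2 and lys2) with SSA1, SSA2, SSA3 and SSA4 deleted by KanMX, HIS3, TRP1 and URA3 respectively. Each carried a LEU2 plasmid with 1 SSA gene under the SSA2 promoter, so no strain used a heat-inducible promoter for its Hsp70, and each was a [psi-] variant. No treatment was given. The labels describe exponentially growing cultures and the study's text overnight growth, so the growth phase is not settled. Cy5-labelled amplified RNA of each strain, pooled from several extractions, was hybridized to 1 array of spotted oligonucleotides. The Ssa3 and Ssa4 strains are therefore different genotypes with 1 array each, not replicates of a condition, and strain, culture and array cannot be told apart.

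Hsp70 chaperones bind exposed hydrophobic stretches of unfolded proteins and release them in cycles of ATP hydrolysis, helped by J-proteins, which stimulate hydrolysis, and by nucleotide exchange factors. Yeast makes Ssa1 and Ssa2 in unstressed cells, whereas SSA3 and SSA4 are normally switched on by heat and other stress. Ssa proteins also hold the heat shock factor Hsf1 in check, and at least 1 Ssa isoform is needed for growth.

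The arrays had medians between 200.4 and 201 on the linear scale of normalized intensity, and from 32.2% to 34.1% of the values on an array lay below 100. Gene names were known for 946 features, 16.4% of those with 4 values, and for 93 of the 143 on the list. These were features that the study listed for a change against the Ssa1 strain, so the named genes are not a random part of the array. Of the named features 5.18% were on the list as higher and 4.65% as lower, and every share of a gene list below has to be read against those values. No estimate of the error of a single strain was possible. With limma, which set the class difference against the spread between the strains of a class, 0 features had an adjusted p below 0.05, and 421 (7.3%) had an unadjusted p below 0.05. The features of the list had adjusted p-values of 0.666 to 0.707 in limma, and an exact test of 2 arrays against 2 cannot go below 0.333 (two-sided).

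SSA2 was the check of the labels. In the Ssa2 strain its intensity was 2505, against 9.01 in Ssa1, 1.21 in Ssa3 and 2.38 in Ssa4. It was high on the array of the strain that carried it and near the floor elsewhere, although every strain held the SSA2 promoter. It met the rule for the lower list with a 3.78-fold gap only because its residual signal of 9.01 in the Ssa1 strain exceeded that of Ssa3 and Ssa4, which says nothing about the class. The other SSA genes were not analysed here.

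Among named genes higher in the Ssa3 and Ssa4 strains, with at least 100 on both of those arrays, the widest gap was that of EGO4 (YNR034W-A), whose description gives no function. Its intensity was 2661 and 2593 in the Ssa1 and Ssa2 strains, and 7033 and 8926 in the Ssa3 and Ssa4 strains. The constitutive arrays lay close together and the stress-inducible ones stood well above them, with a ratio of geometric means of 3.02. YDL218W, also without a known function, measured 705 and 1226 in the Ssa1 and Ssa2 strains, against 2917 and 3204 in the Ssa3 and Ssa4 strains. Here the spread was within the constitutive pair, and the gap was still 2.38-fold.

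ALD3, a cytosolic aldehyde dehydrogenase, had intensities of 671 and 453 in the Ssa1 and Ssa2 strains, and 1476 and 2932 in the Ssa3 and Ssa4 strains. Its ratio of means was 3.78, and the Ssa4 strain was about as far above Ssa3 (1.99-fold) as Ssa3 was above the constitutive pair. HSP30, a plasma membrane heat shock protein that restrains the proton pump Pma1, was among the brightest features of the list. It measured 8503 and 10989.6 in the Ssa1 and Ssa2 strains, against 21057 and 26526 in the Ssa3 and Ssa4 strains, 2.44-fold higher by the means. Its neighbours on the array had a median log2 difference of 0.21 in the same direction.

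TIM13, a small chaperone of protein import in the mitochondrial intermembrane space, gave 255 and 261 in the constitutive strains and 546 and 548 in the Ssa3 and Ssa4 strains. Both pairs were almost identical inside, and the means differed 2.12-fold. The features around TIM13 had a median log2 difference of 0.47, and after it was subtracted the gap of TIM13 was 1.31-fold. CBP3, needed for the synthesis and assembly of cytochrome b, had intensities of 139 and 153 against 378 and 314, and its neighbours were level (median log2 difference -0.01). VPS71, a subunit of the SWR1 complex that places the histone variant H2A.Z, had 118 and 123 against 249 and 245. In CBP3, VPS71 and TIM13 the Ssa3 and Ssa4 strains were close to each other.

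RPC31, a subunit of RNA polymerase III, measured 844 and 864 in the Ssa1 and Ssa2 strains, then 1817 in Ssa3 and 3197 in Ssa4. DAP2, a dipeptidyl aminopeptidase of the vacuole, measured 338 and 329.8, then 662 and 1117 in the same order. YHR138C measured 1796 and 1797, then 3499 and 4673. In these 3 genes the constitutive strains agreed closely and Ssa4 lay clearly above Ssa3. The neighbours of DAP2 and YHR138C were higher as well (median log2 differences 0.43 and 0.31). Once this was subtracted, their gaps were 1.28-fold and 1.18-fold. AAD14, a putative aryl-alcohol dehydrogenase from a family of near-identical genes whose signals an oligonucleotide may not separate, had 109 and 119 against 294 and 233.

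LEU2, the marker of the plasmid that carried the SSA gene, was on the list too. Its intensity was 999 and 1451 in the Ssa1 and Ssa2 strains and 3229 and 5006 in the Ssa3 and Ssa4 strains, 3.34-fold higher by the means. The marker was thus read at unequal strength although all 4 strains carried it, and transcript from the plasmid and from the chromosomal leu2 allele cannot be told apart on this array. Plasmid copy number was not measured, and its part in any other result was not tested. Of the 28 features without a name on the higher side, SCS0570102 had the widest gap, with 6337 and 5972 in the constitutive strains and 12079 and 11825 in the Ssa3 and Ssa4 strains.

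**Figure D1:**
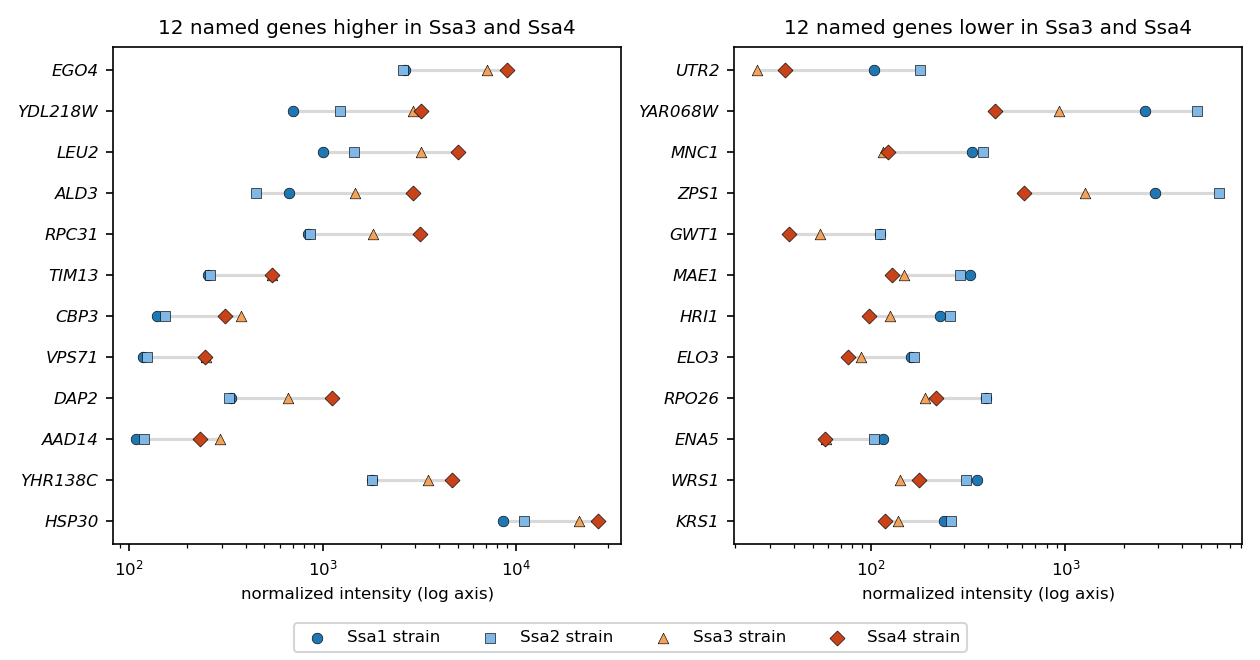
Normalized intensity (log axis) on each of the 4 arrays of the 12 named genes with the widest gap in each direction, limited to genes with at least 100 on both arrays of the higher pair. Each symbol is 1 array, and in every row the 2 stress-inducible strains lie on one side of the 2 constitutive strains, with at least a 1.5-fold gap between the sides.

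On the lower side the widest gap of a gene other than SSA2 belonged to UTR2, a transglycosylase that links chitin to glucan in the cell wall. Its intensity was 103 and 179 in the Ssa1 and Ssa2 strains, against 25.9 and 36.0 in the Ssa3 and Ssa4 strains. The means differed 4.45-fold and the gap was 2.86-fold, although the lower values were dim, below 100. MNC1 (YBR056W-A), of unknown function, measured 329 and 375 in the constitutive strains and 115 and 121 in the stress-inducible strains.

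YAR068W, also of unknown function, was bright in the constitutive strains, with 2572 and 4752, and measured 931 and 435 in the Ssa3 and Ssa4 strains. ZPS1, a secreted protein made under zinc shortage, had the same order, with 2900.0 and 6161 in the Ssa1 and Ssa2 strains, then 1258 and 615 in the Ssa3 and Ssa4 strains. In both genes Ssa2 was the highest and Ssa4 the lowest of the 4 arrays, and the ratios of means were 5.49 and 4.81. The neighbours of ZPS1 had a median log2 difference of -0.39, and its gap was 1.45-fold once this was subtracted. YOR387C, another gene of the zinc deficiency list, ran in the same order at a dim level, with 22.2 and 65.6, then 11.9 and 5.67. The study's RT-qPCR gave YOR387C the same order. Of the 6 named genes of the zinc deficiency list, ZPS1 and YOR387C met the 1.5-fold gap as lower and 0 met it as higher. At any gap 3 of the 6 were separated as lower and 2 as higher, where 21.5% and 23.2% of all named features were.

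GWT1, which acylates inositol during the synthesis of GPI anchors, measured 111 and 111 in the constitutive strains and 54.8 and 37.8 in the Ssa3 and Ssa4 strains. MAE1, the mitochondrial malic enzyme, measured 321 and 287 against 148 and 129. ELO3, a fatty acid elongase of sphingolipid synthesis, measured 161 and 165 against 88.4 and 75.8. RPO26, a subunit shared by RNA polymerases I, II and III, measured 389 and 391 in the constitutive strains against 189.7 and 216. In these 4 genes the constitutive strains were nearly level. The neighbours of GWT1, ELO3 and RPO26 were lower as well (median log2 differences -0.59, -0.27 and -0.34), and none of those 3 kept a 1.5-fold gap after subtraction, whereas MAE1 did.

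KRS1 and WRS1, the cytosolic lysyl- and tryptophanyl-tRNA synthetases, were both on the lower side. KRS1 measured 238 and 258 in the constitutive strains against 137 and 117, and WRS1 measured 351 and 308 against 141 and 177. Both stayed on the list under each of the alternative scalings that were run. HRI1, of unknown function, measured 226 and 254 against 125 and 97.4. ENA5, a sodium efflux pump whose near-identical neighbours ENA1 and ENA2 may share its signal, measured 115 and 103 against 58.8 and 57.7. Of the 22 features without a name on the lower side SCS0120201 had the widest gap, with 1269.9 and 1197 in the Ssa1 and Ssa2 strains and 656 and 694 in the Ssa3 and Ssa4 strains.

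**Figure D2:**
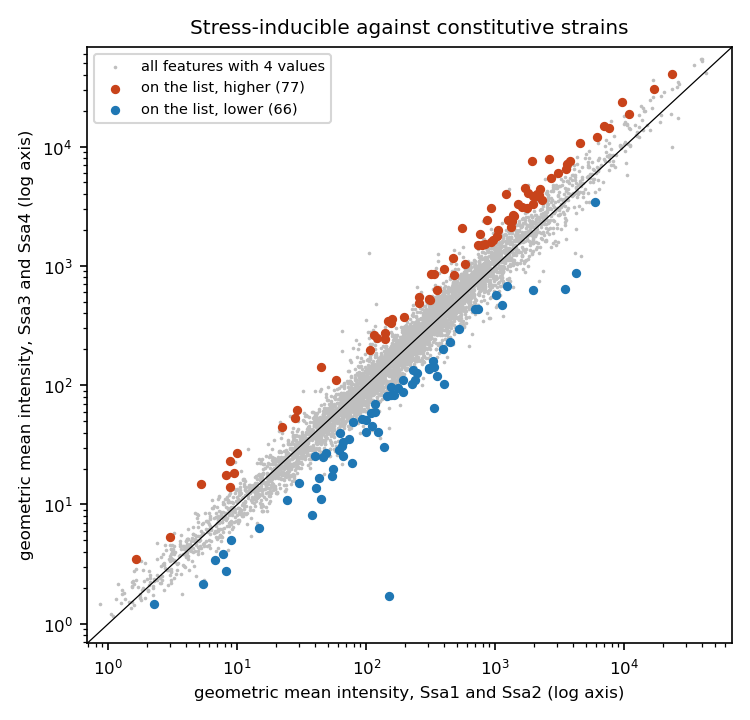
Geometric mean intensity of the Ssa3 and Ssa4 arrays against that of the Ssa1 and Ssa2 arrays (both axes logarithmic), 1 point per feature with 4 values, with the line of equality. The 77 higher features lie mostly at high intensity and the 66 lower ones mostly at low intensity, and the isolated blue point near the bottom is SSA2.

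The sides of the list differed in brightness. The median intensity of the higher features was 1218 and that of the lower features 75.4, as geometric means of the 4 arrays. Of the 77 higher features 64 had at least 100 on every array, compared with 20 of the 66 lower ones, and 26 lower features were below 100 throughout. The same tilt ran through the whole array. When all features were cut into 5 classes of equal size, from the dimmest to the brightest, the median log2 class difference was -0.06, -0.04, 0.01, 0.07 and 0.17, and the brightest class held 46 of the 77 higher features.

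The split of the list also moved with the scaling. It was 77 higher and 66 lower as deposited, 45 and 77 after quantile normalization, and 42 and 81 after a lowess curve was subtracted from each array. Of the 77 higher features 38 were on the list after quantile normalization and 36 after lowess, and of the 66 lower ones 55 and 56. The part of the tilt in these changes and in the single results was not tested. SOD1, GRX1, HXK1 and LYS20 lost their 1.5-fold gap under both of these scalings, MRP49 and SCS0570102 under lowess only, and SER2 and HHF1 under quantile normalization only.

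Which split of the 4 arrays separated most features depended on the processing. As deposited, the class split was not the largest. When the Ssa2 and Ssa4 arrays were set against Ssa1 and Ssa3, 163 features (2.82%) had a gap over 1.5-fold, of which 23 (0.399%) were higher and 140 (2.43%) lower in Ssa2 and Ssa4. Setting Ssa2 and Ssa3 against Ssa1 and Ssa4 gave 18 features (0.312%), 13 of them higher (0.225%) and 5 lower (0.0866%) in Ssa2 and Ssa3. With at least 100 on all 4 arrays the order was different, with 64 higher and 20 lower for the class split, 14 and 24 for Ssa2 and Ssa4, and 5 and 4 for the remaining split. At a 2-fold gap the counts were 18, 20 and 4. The class split held 122 features and Ssa2 and Ssa4 against Ssa1 and Ssa3 held 103 after quantile normalization, 123 and 105 after lowess, and 72 and 37 with 50 added to every intensity. The order was again the other way after neighbour subtraction, with 121 and 157.

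Of the variation between the arrays over all features, 38.8% lay along the class split, 41.9% between Ssa2 with Ssa4 and Ssa1 with Ssa3, and 19.2% along the remaining split. Pair by pair, the median absolute log2 ratio was smallest between Ssa1 and Ssa2 (0.23) and largest between Ssa1 and Ssa4 (0.40). The Ssa3 array was nearer to Ssa1 (0.27) and to Ssa2 (0.31) than to Ssa4 (0.37). The stress-inducible strains were thus further from each other than Ssa3 was from either constitutive strain.

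**Figure D3:**
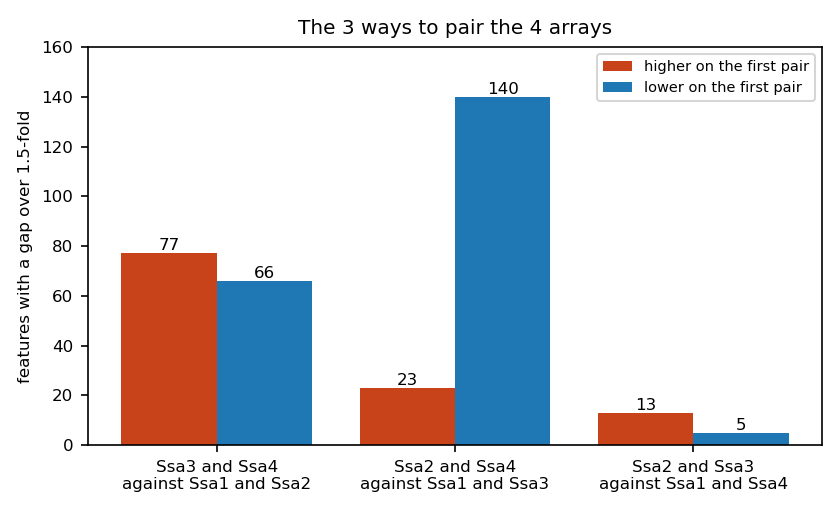
Number of features with a gap over 1.5-fold for each of the 3 ways to pair the 4 arrays, counted separately for features higher and lower on the first pair named. The class split gave 77 and 66, Ssa2 and Ssa4 against Ssa1 and Ssa3 gave 23 and 140, and Ssa2 and Ssa3 against Ssa1 and Ssa4 gave 13 and 5.

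Within the list the Ssa4 strain was usually the more distant one. It lay farther from the constitutive pair than Ssa3 in 57 of the 77 higher features and in 49 of the 66 lower ones. Over all features it was the farther in 58.8%, and over those separated at any gap in 61.3%. Ssa3 and Ssa4 were within 1.2-fold of each other in 38 higher and 32 lower features, and over 1.5-fold apart in 19 and 20. The most unequal was SCJ1, a J-protein of the endoplasmic reticulum, with 296 and 382 in the constitutive strains, then 179 in Ssa3 and 23.2 in Ssa4. Its neighbours had a median log2 difference of -0.995, and its gap was 1.23-fold once this was subtracted. In the study's RT-qPCR SCJ1 was lower in both Ssa3 and Ssa4, at nearly equal levels.

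ARO9, an aromatic aminotransferase, had a similar course, with 442 and 365 in the constitutive strains, then 222 and 46.7 in Ssa3 and Ssa4. PHO89, a sodium and phosphate cotransporter, measured 1927 and 1987, then 1177 and 338. In both, the Ssa3 strain was moderately lower and the Ssa4 strain far lower. The study's RT-qPCR gave the same order for ARO9 and did not cover PHO89. The opposite order was seen in BDH2, a putative butanediol dehydrogenase, which was highest in the Ssa3 strain, with 864 and 676 in the constitutive strains, 2326 in Ssa3 and 1448 in Ssa4. LYS20, a homocitrate synthase of lysine synthesis, measured 3752 in Ssa1, 971 in Ssa2, 6169.7 in Ssa3 and 9247 in Ssa4. It owed much of its 3.96-fold ratio of means to the Ssa2 array. In the study's RT-qPCR LYS20 was near its Ssa1 level in Ssa2 and Ssa3 and higher only in Ssa4. By that measure it did not separate the classes.

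**Figure D4:**
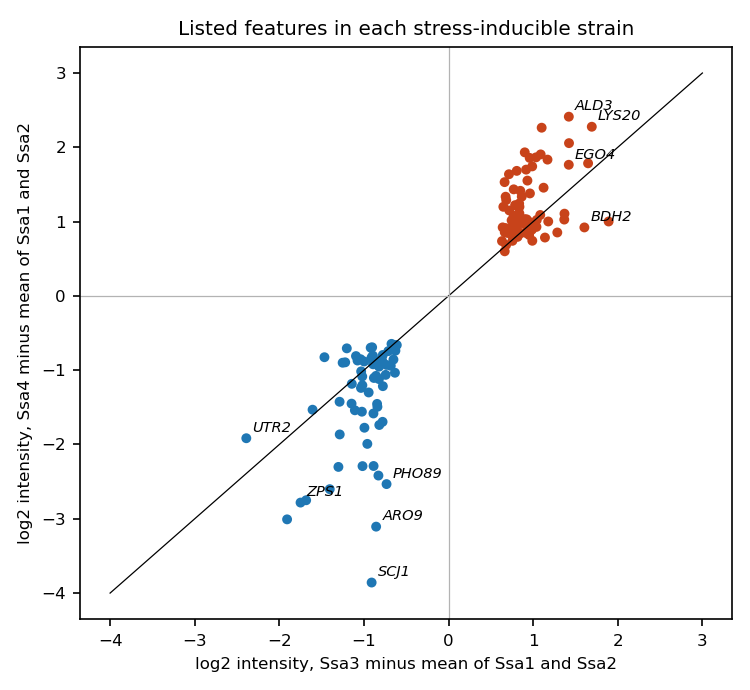
Log2 intensity in Ssa3 (horizontal) and in Ssa4 (vertical) relative to the mean log2 intensity of the Ssa1 and Ssa2 strains, 1 point per listed feature without SSA2, red for higher and blue for lower, with the line of equality. More points lie beyond the line on the Ssa4 side (57 of 77 higher and 49 of 66 lower, SSA2 included in the count), and SCJ1, ARO9 and PHO89 stand far below it.

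The chaperones and their helpers did not move as a group. Of 17 named genes for heat shock proteins and co-chaperones, 3 were on the list as higher, 2 (SSA2 and SCJ1) as lower and 12 not at all, with a median log2 difference of 0.52 beside 0.03 over all features and -0.17 over the named ones. SSE1, the Hsp110 that serves as nucleotide exchange factor of the Ssa proteins, measured 1514 and 1729.5 in the constitutive strains and 3204 and 3002 in Ssa3 and Ssa4. CPR1, the cytosolic cyclophilin A, measured 1836 and 1567, then 3298 and 6146, and HSP30 was the third.

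SSE2, the stress-induced partner of SSE1, was separated without reaching the 1.5-fold gap, with 5117 and 5469, then 7349.7 and 11315. HSP82, an Hsp90, was lowest in the Ssa4 strain at 442 and highest in the Ssa3 strain at 1439.7, with 1124 and 1121 in Ssa1 and Ssa2. HSP31, a chaperone and glyoxalase, was low in the Ssa1 strain alone, with 498 beside 3304 in Ssa2, 2765 in Ssa3 and 7010.1 in Ssa4. On the arrays neither HSP82 nor HSP31 separated the classes. In the study's RT-qPCR HSP31 was again lowest in Ssa1, but by much less, and Ssa3 and Ssa4 lay above Ssa2.

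Genes of the oxidative stress response, many of them targets of the transcription factor Yap1, leaned to the stress-inducible strains. Of 28 named members 3 (SOD1, GRX1 and AAD14) were on the list as higher and 0 as lower, and 17 were separated at any gap in the higher direction and 1 in the lower. Over all features those any-gap shares were 23.3% and 16.2%, and over the named features 23.2% and 21.5%. Each any-gap count of a gene list in the class split, here and below, has to be read against these shares. The median log2 difference of the list was 1.0 as deposited, 0.75 after quantile normalization and 0.79 after lowess. With these scalings 16 members were separated as higher and 1 was on the main list.

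SOD1, the copper and zinc superoxide dismutase, measured 2032 and 1882 in the constitutive strains, and 3137 and 4781 in Ssa3 and Ssa4. GRX1, a glutaredoxin, measured 2501 and 2941, then 4849 and 6229. Several members were just short of the list. AHP1, a thiol peroxidase, measured 14763 and 19143, then 27748 and 46685, with a gap of 1.45-fold. ZWF1, which makes NADPH as the entry enzyme of the pentose phosphate pathway, measured 1641 and 2205, then 3108 and 4775, with a gap of 1.41-fold. MXR1, a methionine sulfoxide reductase, measured 431 and 640.2, then 915 and 1768, and GSH1, the initial enzyme of glutathione synthesis, 321 and 632, then 791 and 1434.

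In most of these redox genes Ssa1 was the lowest array, and in most Ssa4 was the highest. The order was not shared by all: SOD1 was lowest in Ssa2, and AAD14 was highest in Ssa3. Of the 28 members 17 were lowest on the Ssa1 array and 21 highest on the Ssa4 array, where 305 and 300 of all 946 named features were. DOT5, a nuclear thiol peroxidase, was the member in the other direction, with 600.2 and 656 in the constitutive strains, 96.2 in Ssa3 and 477 in Ssa4. TRX2, a thioredoxin, measured 7303 in Ssa1, 13509 in Ssa2, 10316 in Ssa3 and 31659 in Ssa4 and did not separate the classes.

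Mitochondrial ribosomal proteins were mostly separated by small gaps. Of 25 named members 16 were separated as higher and 0 as lower, 1 was on the main list, and the median log2 difference was 0.65 (0.53 after lowess, with 13 separated). MRP49 measured 439.5 and 517 in the constitutive strains, and 789 and 890.5 in Ssa3 and Ssa4. MRPL31 measured 748 and 1224, then 1800.1 and 1968. In the study's RT-qPCR MRPL6, also of this group, was above its Ssa1 level by nearly the same amount in Ssa2, Ssa3 and Ssa4. That rise was much smaller than on the arrays, and by that measure MRPL6 did not separate the classes. The Ssa1 array was the lowest in 23 of the 25, where it was the lowest in 305 of all 946 named features and 1380 of all 5771. The named features were listed for a change against Ssa1, which favours an extreme Ssa1 value. A trait of this group therefore cannot be read from the Ssa1 count alone.

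Cytosolic ribosomal proteins had a median of the opposite sign. Of 32 named members 0 were on the list, 11 were separated as lower and 2 as higher, and the median log2 difference was -0.50 (-0.62 after lowess). Set as Ssa2 and Ssa4 against Ssa1 and Ssa3, 17 were lower and 0 higher at any gap, where 32.9% and 12.8% of the named features were. The Ssa4 array was the lowest in 29 of the 32, where it was the lowest in 405 of all 946 named features. RPL7A, for example, measured 446 and 496 in the constitutive strains, 363 in Ssa3 and 133 in Ssa4. Many of these genes have a near-identical copy, and the intensities of the copies may not be separate measurements.

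Glucose-repressed genes and genes of sulfur amino acid metabolism supplied 1 listed gene each. Of 23 named glucose-repressed genes 1 was on the list as higher (ALD3) and 0 as lower, with a median log2 difference of -0.83. At any gap 1 was separated as higher and 3 as lower in the class split. Set as Ssa2 and Ssa4 against Ssa1 and Ssa3, 19 of the 23 were lower at any gap, where 32.9% of the named and 24.9% of all features were, and 8 at the 1.5-fold gap. ADH2, the alcohol dehydrogenase that consumes ethanol, measured 10062 in Ssa1, 2148 in Ssa2, 3867 in Ssa3 and 384 in Ssa4. Of 16 genes of sulfur amino acid metabolism 1 was on the list as higher and 0 as lower, and 6 were separated as higher and 0 as lower at any gap, with a median log2 difference of 0.61. In Ssa2 and Ssa4 against Ssa1 and Ssa3, 8 were higher and 1 lower. Of all named features 12.8% were higher and 32.9% lower in that split. The Ssa1 array was the lowest in 14 and the Ssa4 array the highest in 13. Over all 946 named features those counts were 305 and 300. The listed sulfur gene was JLP1, a dioxygenase that releases sulfite from sulfonates. It measured 135 and 142 in the constitutive strains, and 284 and 263 in Ssa3 and Ssa4. After neighbour subtraction the gap of JLP1 was 1.35-fold, and 0 of the 16 sulfur genes were on the list.

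Of 16 genes of hexose transport and glycolysis 1 was on the list as higher and 0 as lower, and 8 were separated as higher and 2 as lower at any gap, with a median log2 difference of 0.78. The listed gene was HXK1, a hexokinase made mainly on carbon sources other than glucose. It measured 6390.0 and 7435 in the constitutive strains, and 11756 and 18626 in Ssa3 and Ssa4. After quantile normalization or lowess 7 hexose genes were separated as higher, and 0 were on the list as higher and 1 as lower. After neighbour subtraction 3 of 15 were separated as higher, and the gap of HXK1 was 1.11-fold. As deposited, the hexose transporter HXT1 was separated as higher and HXT7 was not. In the study's RT-qPCR neither of these transporters separated the classes, and HXT1 was below its Ssa1 level in both Ssa2 and Ssa3. Of 12 respiratory genes the list held only CBP3, while 6 were separated as higher and 0 as lower at any gap (3 as higher after quantile normalization or lowess), with a median log2 difference of 0.80. Of 20 genes for use of poor nitrogen sources the list held only ARO9, and of 9 iron uptake genes, 14 Ty genes and 5 vitamin genes 0. Among 16 genes for other amino acids LEU2, the plasmid marker, and LYS20, not separated in the study's RT-qPCR, were higher. SER2 and SHM2, which make serine and interconvert serine and glycine, were lower. SHM2 measured 1048 and 964 against 604 and 528, and SER2 72.8 and 57.2 against 27.1 and 34.6, both with the Ssa3 and Ssa4 strains below. After neighbour subtraction SHM2 no longer separated the classes.

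Genes of the cell surface and of the cell cycle supplied several of the lower features. Of 21 cell wall genes 2 (UTR2 and CDA2) were on the list as lower and 0 as higher, and 10 were separated as lower and 2 as higher at any gap, with a median log2 difference of -0.52. GAS1, a glucan transferase of the wall, measured 873 and 1157, then 703 and 286. CDA2, a chitin deacetylase of the spore wall, measured 122 and 49.8, then 31.7 and 15.8, and 3 of its 4 values were below 100.

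Of 15 cell cycle genes 3 were on the list as lower and 1 as higher. RNR1, the large subunit of ribonucleotide reductase, measured 313 and 351 in the constitutive strains, 193 in Ssa3 and 102 in Ssa4. YHP1 and YOX1, paired homeodomain repressors of genes expressed between mitosis and G1, were both lower but dim. YHP1 measured 41.5 and 44.4 against 17.6 and 16.0, and YOX1 47.7 and 62.0 against 26.9 and 11.1. In the study's RT-qPCR YOX1 was already lower in Ssa2 than in Ssa1, and lower still in Ssa3 and Ssa4. HHF1, encoding histone H4 from a pair of copies, was higher, with 238 and 279 against 423 and 571.

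Of 10 mating genes PRM7 and KAR3, a minus-end directed kinesin, were lower. KAR3 measured 60.8 and 62.0 in the constitutive strains, and 30.3 and 26.7 in Ssa3 and Ssa4. Of 21 genes of meiosis and sporulation SMK1, a kinase of spore formation, was higher at the level of the weakest spots (5.91 and 4.66 against 11.8 and 18.7), and CDA2 was lower. With 50 added to every intensity RNR1, YHP1, YOX1, PRM7, KAR3, CDA2, SER2, YOR387C, ENA5, HHF1, MRP49, SMK1 and SSA2 had no 1.5-fold gap left.

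**Figure D5:**
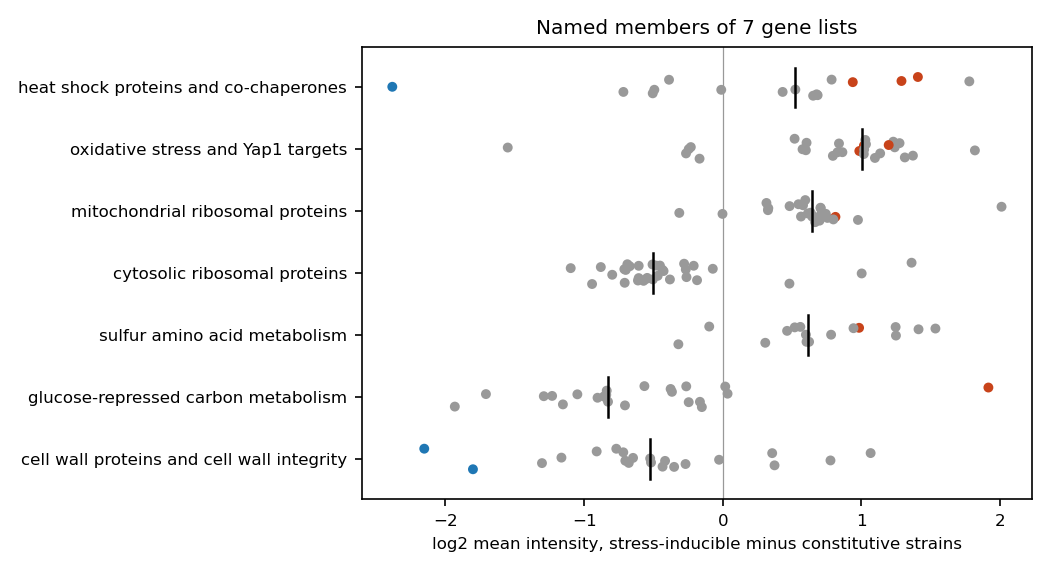
Difference of the mean log2 intensity, Ssa3 and Ssa4 minus Ssa1 and Ssa2, for the named members of 7 gene lists, with red for genes on the list as higher, blue for lower, grey for genes not on it, and a black bar at the median of each list. SSA2, at -6.47, is left off the plot but counted in its median. The medians run from 1.0 for oxidative stress genes to -0.83 for glucose-repressed genes, and most points of every list are grey.

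The rule had a sharp edge. AQY3 was just inside it, with 149 and 164 in the constitutive strains and 247 and 451 in the others, a gap of 1.507-fold. AAH1 was just outside, with 109 and 147 against 72.5 and 49.9, a gap of 1.498-fold. Position on the array moved with some calls: the neighbours of 11 of the 76 higher features with neighbour values (14.5%), and of 14 of the 66 lower ones (21.2%), had a median log2 difference past 0.3 in the same direction, compared with 8.90% and 7.79% of all features. After the neighbour median was subtracted, 25 of those 76 and 34 of those 66 were still on the list. Of the 48 named genes with neighbour values, 19 lost their 1.5-fold gap in this way. Besides those already given, they were CPR1, GRX1, LYS20, MRP49, HHF1, ENA5, CDA2 and SCS0120201. The part of position in the single results was not tested beyond this subtraction.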

How the data were processed

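The deposited values are normalized Cy5 intensities on a linear scale. According to the methods, the authors took the median foreground of each spot, dropped spots that did not exceed the confidence interval of the blanks, removed the mean blank signal and scaled each array to its median. None of this was repeated. Log2 intensities of the 5771 features with 4 values were compared without an offset. The members, gene lists and rules were chosen with earlier results of these data known.

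Names came from the study's supplementary list of changed genes, by matching all 4 intensities to a relative tolerance of 1e-05. All 946 loci matched 1 feature each, and 935 were in the R64 gene table, used for symbols and for which genes are neighbours. Named genes were the 12 in each direction with the widest gap and at least 100 on both arrays of the higher pair, every listed member of the gene lists, SSA2, and in each direction the unnamed feature with the widest gap. Genes of the lists that missed the 1.5-fold gap, and AQY3 and AAH1 at its edge, are given as examples chosen after their values were seen.

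Strains of a class are not replicates, and the number of arrays limits the precision. limma 3.58.1 in R 4.3.3 (eBayes with trend, class as the only term, Benjamini-Hochberg over all features) treated them as the unit. The alternatives were equal medians, quantile normalization, lowess (fraction 0.4), an offset of 50, a limit of 100, other gaps, missing values set to the lowest value, leaving out each array, and subtraction of the neighbour median. Neighbours were 1, 14 and 15 positions away on a grid of 32 blocks inferred from the feature names, with at least 3 required. Counting was tested on simulated data. Python 3.11.15, numpy 2.4.6, pandas 2.3.3 and statsmodels 0.14.6 were used.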

Additional observations from a re-analysis of the deposited data

How the results depend on the processing

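The counts of 77 higher and 66 lower features changed most with the gap (7 and 11 at 2-fold, 1346 and 936 at any gap) and with leaving out an array, when the lone array stood for its class (239 to 409 higher, 154 to 503 lower, the highest without Ssa3). Higher features numbered 45 after quantile normalization and 42 after lowess. Lower features numbered 18 with the offset, 35 with at least 100 on both constitutive arrays and 20 with at least 100 on all 4. Equal medians gave 80 and 65, and filled missing values 77 and 67.

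For Ssa2 and Ssa4 against Ssa1 and Ssa3 the 163 features became 103 after quantile normalization, 105 after lowess, 37 with the offset, 64 and 38 with the limits on low values, and 20 at 2-fold. For Ssa2 and Ssa3 against Ssa1 and Ssa4 the 18 became 8 with the offset, 9 with at least 100 on all 4, and 4 at 2-fold. Chosen after seeing the data were the neighbour subtraction for these pairings (157 and 19), the counts of gene lists under other scalings and the lower count without SSA2 (65). The causes were not tested, except that the filters leave fewer features. limma called 0 features under each alternative run, with 290 to 421 at an unadjusted p below 0.05.

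Of the 49 named genes 19 kept the 1.5-fold gap under each scaling, the offset and the neighbour subtraction (not run for LEU2, which has no neighbour value), and 0 changed direction. No paired analysis was possible because each strain has 1 array.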

Other observations

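Some groups were noticed only after the values were seen and are given as values. Among 65 named genes described as dehydrogenases or reductases 9 were on the list as higher and 1 (RNR1) as lower, and 5 as higher after quantile normalization, lowess or neighbour subtraction. Besides the genes above, the higher ones were BDH1, GND2, YML131W and YJR096W. BDH1, a butanediol dehydrogenase, measured 1300.4 in Ssa1, 1747 in Ssa2, 2714 in Ssa3 and 4017 in Ssa4. GND2, the minor 6-phosphogluconate dehydrogenase, measured 3984, 3640.5, 6569.6 and 8879.7 in that order. CRS5, a copper-binding metallothionein, measured 3963 and 5156 in the constitutive strains, and 7903 and 14512 in Ssa3 and Ssa4.

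Of 7 named aminoacyl-tRNA synthetases 3 were on the list as lower and 0 as higher. TYS1, the cytosolic tyrosyl enzyme, measured 535 and 512 in Ssa1 and Ssa2, against 337 and 255 in Ssa3 and Ssa4. MSD1 and MSK1, which charge tRNA in mitochondria, were not on the list, and MSD1 measured 276 and 446, then 574 and 589. ADE4, of purine synthesis, measured 240.1 and 214 in the constitutive strains, against 82.0 and 128. INO1, which makes inositol phosphate, measured 357 and 266, then 172 and 109.6.

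Of the 92 named genes on the list with a place in the R64 gene table, 5 pairs are chromosomal neighbours, and 4 of these pairs share a direction. PRM7 (YDL038C) and BSC1 (YDL037C), with adjacent locus names, were both lower and are not in this count. How many such pairs the named genes would give by their places alone was not computed. BDH2 with BDH1 and AQY3 with DAK2 were higher, KRS1 with ENA5 and YEL076C with YEL075C were lower, and ARO9 and YHR138C had opposite directions. Lastly, 2 features had values on both constitutive arrays and on neither stress-inducible array. Of these SCS0430804 measured 2145 in Ssa1 and 1.88 in Ssa2, and SCS0240311 measured 1.42 and 0.744.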
